A study of Homo sapiens with 6 samples.

Results

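The collagen genes are the protein-coding genes of the count files whose symbol is COL, a number, A and a number, 44 of 58381 genes. Each encodes 1 alpha chain. They were described by class across 3 groups of 786-0 cells, a human clear cell renal cell carcinoma line. The cells received DMSO vehicle, 100 nM decitabine or 300 nM decitabine on each of 3 days, then fresh medium on day 4, and RNA was taken on day 5. Decitabine, a cytidine analogue, binds DNA methyltransferases covalently once it is built into DNA, and dividing cells then lose methylation. All 6 libraries, the DMSO controls included, are labelled SETD2 KO, and SETD2 is the enzyme that trimethylates lysine 36 of histone H3. No library with intact SETD2 was analysed here, so every change reported is one of decitabine on this genotype. Polyadenylated RNA was sequenced from 2 libraries per group. The labels do not say whether these came from separate cultures or clones, so p-values measure the spread between libraries, which may be technical.

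Collagens are secreted or membrane proteins in which alpha chains wind around each other into a triple helix. Fibrillar chains such as COL1A1 and COL1A2 build the cables of connective tissue, and FACIT chains (fibril-associated collagens with interrupted triple helices) sit on their surface. Type IV chains form the sheet of basement membranes, type VI chains form beaded filaments beside cells, and type VII forms anchoring fibrils under epithelia. Chains of one trimer are encoded by separate genes, so the amount of a trimer can be limited by its scarcer chain. Normal kidney tubules rest on a type IV sheet, while fibrillar collagens are mainly made by fibroblasts and related stromal cells.

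Collagen genes are often arranged as pairs, and decitabine traps the enzymes that methylate CpG dinucleotides, so the sequences before the starts of the genes that the results turn on are shown. They are from RefSeq on GRCh38.p14, run 5′ to 3′ on the strand given, and have each CpG in capitals. COL4A1 and COL4A2, the main type IV chains, are transcribed away from each other on chromosome 13, and the 126 bases between their RefSeq starts (chr13:110307158-110307283, + strand) held 20 CpGs. COL4A5 and COL4A6 form a second such pair on the X chromosome, with 379 bases between the COL4A5 start and the nearer RefSeq start of COL4A6. The 250 of these before the COL4A5 start (chrX:108439588-108439837, + strand) held 8 CpGs. COL5A1 (chr9:134641555-134641804, + strand, 29 CpGs) and COL8A2 (chr1:36125223-36125472, - strand, 35 CpGs) had the highest fold changes of the genes described. COL6A3 (chr2:237414165-237414414, - strand, 3 CpGs) changed the most within type VI, and COL18A1 (chr21:45404915-45405164, + strand, 37 CpGs) fell at both doses.
COL4A1 and COL4A2: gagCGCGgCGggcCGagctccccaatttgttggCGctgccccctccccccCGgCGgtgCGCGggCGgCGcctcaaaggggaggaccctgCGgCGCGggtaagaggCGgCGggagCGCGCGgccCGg
COL4A5: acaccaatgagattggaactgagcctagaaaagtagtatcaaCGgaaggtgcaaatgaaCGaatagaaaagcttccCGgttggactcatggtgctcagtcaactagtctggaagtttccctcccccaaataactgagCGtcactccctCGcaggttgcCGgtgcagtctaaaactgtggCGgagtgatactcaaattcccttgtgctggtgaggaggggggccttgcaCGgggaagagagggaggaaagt
COL5A1: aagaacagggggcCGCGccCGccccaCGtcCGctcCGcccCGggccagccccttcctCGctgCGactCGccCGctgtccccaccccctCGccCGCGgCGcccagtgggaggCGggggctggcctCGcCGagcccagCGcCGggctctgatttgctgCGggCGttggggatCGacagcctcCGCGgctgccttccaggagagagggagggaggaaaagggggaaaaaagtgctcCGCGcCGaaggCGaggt
COL8A2: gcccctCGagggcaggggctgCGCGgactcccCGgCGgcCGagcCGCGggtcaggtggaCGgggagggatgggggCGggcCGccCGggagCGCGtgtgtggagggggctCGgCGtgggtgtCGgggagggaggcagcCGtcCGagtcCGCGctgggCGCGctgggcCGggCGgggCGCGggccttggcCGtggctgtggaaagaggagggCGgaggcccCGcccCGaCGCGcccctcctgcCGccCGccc
COL6A3: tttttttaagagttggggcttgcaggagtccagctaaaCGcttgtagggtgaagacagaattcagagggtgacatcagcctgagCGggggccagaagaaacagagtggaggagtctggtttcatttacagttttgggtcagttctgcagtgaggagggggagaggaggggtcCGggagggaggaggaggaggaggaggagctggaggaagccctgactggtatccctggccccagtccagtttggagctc
COL18A1: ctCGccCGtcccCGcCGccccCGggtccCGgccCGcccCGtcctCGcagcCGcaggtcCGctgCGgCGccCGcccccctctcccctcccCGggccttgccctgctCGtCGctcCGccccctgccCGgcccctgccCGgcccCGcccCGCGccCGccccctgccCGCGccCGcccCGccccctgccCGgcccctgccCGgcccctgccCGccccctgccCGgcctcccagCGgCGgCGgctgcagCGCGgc

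Libraries held 89159112 to 96646427 reads assigned to genes, and a count of 0 allowed a level of up to 0.0310 to 0.0336 CPM (3 reads, counting error only; CPM, the level used throughout, is the count scaled by TMM to the depth of the library). SETD2 RNA was 77.9 and 81.2 CPM with DMSO, 39.8 and 49.1 CPM at 100 nM and 16.4 and 21.7 CPM at 300 nM, which does not check the genotype label, since an edited gene may still be transcribed. Its log2 fold change at 100 nM was -0.84 (SE 0.14, adjusted p = 1.0e-04), and that at 300 nM was -2.06 (SE 0.14, adjusted p = 1.5e-09), or -0.54 and -1.10 with per-gene offsets for length and GC. Of 6 kidney line markers, 1 was called higher and 3 lower at 100 nM, and 2 higher and 4 lower at 300 nM. Of all tested genes, 24.0% were called higher and 18.7% lower at 100 nM, and 34.8% higher and 31.1% lower at 300 nM. CDH6 averaged 169 CPM with DMSO, 37.2 CPM at 100 nM and 20.3 CPM at 300 nM. PAX8 averaged 254, 158 and 80.3 CPM and PAX2 24.0, 15.3 and 17.9 CPM in the same order. CA12, the other one called lower at 300 nM, was the 1 called higher at 100 nM, with means of 312, 440 and 263 CPM. NNMT and VIM were called higher there (log2 0.46 and 0.30). With the offsets NNMT stood at -0.27, beside a median of -0.24 of all tested genes. VIM, at 1778 to 2369 CPM, made up most of the sum of the list.

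Collagen genes took 0.427% and 0.410% of assigned reads in the DMSO group, 0.613% and 0.615% in the 100 nM group and 0.580% and 0.590% in the 300 nM group. Both decitabine groups lay above DMSO with no overlap. With 2 libraries per group, values can stand apart without a true difference. The share of all genes without overlap was not counted, so overlap is given here and below as description only. Of the 44 genes, 35 passed the filter on low counts, and 19 were called higher and 3 lower at 100 nM than with DMSO (edgeR quasi-likelihood test, adjusted p under 0.05). At that dose 24.0% of all 23160 tested genes were called higher and 18.7% lower. At 300 nM 21 collagen genes were called higher and 5 lower, where 34.8% of all tested genes were called higher and 31.1% lower. All 19 genes called higher at 100 nM were also called higher at 300 nM, and the 3 called lower at 100 nM were also called lower there. The median log2 fold change of the tested collagen genes was 2.12 at 100 nM and 2.22 at 300 nM, beside 0.03 and 0.05 for all tested genes.

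The calls were split by the level with DMSO. Of the 18 collagen genes with at least 1 CPM with DMSO, 9 were called higher and 5 lower at 300 nM. Of the 26 under 1 CPM, 17 were tested, of which 12 were called higher. A gene near 0 with DMSO enters the test mainly through its treated libraries, so the counts and medians over tested members describe them and are no support for a shift of collagen genes in general. When offsets for exon length and GC were added, the median of all tested genes moved to -0.21 at 100 nM and -0.24 at 300 nM and that of collagen genes to 1.87 and 2.02. In bulk RNA, more cells that make a chain and more RNA per cell cannot be told apart.

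**Figure D1:**
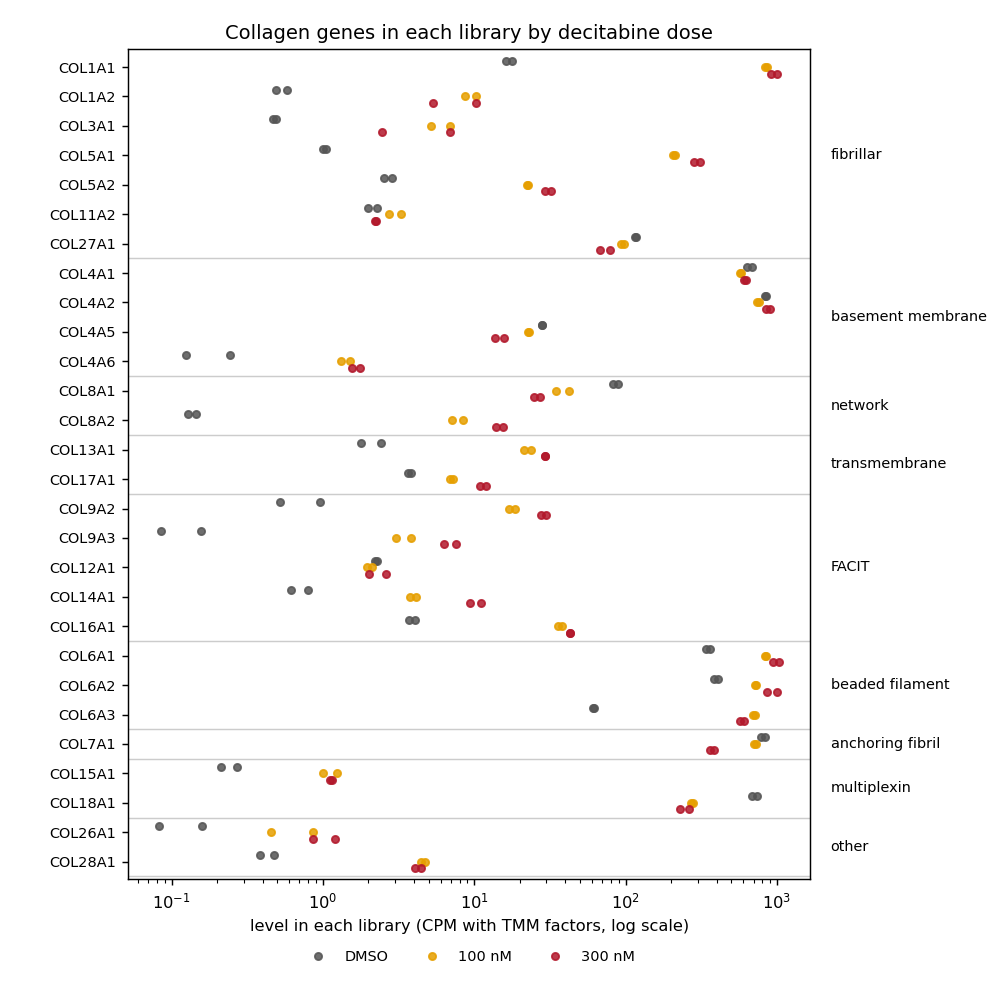
Level of each of the 28 collagen genes that reached a mean of 1 CPM in any group, in each library (x axis, CPM with TMM factors, log scale), by class, with 2 points per group. COL1A1 stood at 16.3 and 17.7 CPM with DMSO and at 829.9 to 1001 CPM with decitabine, while COL4A1 and COL4A2 stayed between 566 and 895 CPM in all libraries.

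Among the 11 fibrillar genes 10 were tested, of which 5 were called higher and 1 lower at 100 nM, and 6 higher and 1 lower at 300 nM. Of all tested genes, 24.0% were called higher and 18.7% lower at 100 nM, and 34.8% higher and 31.1% lower at 300 nM. COL1A1, the alpha 1 chain of type I collagen (chromosome 17, bases 50183289 to 50201632 of GRCh38), had 16.3 and 17.7 CPM with DMSO, 861 and 829.9 CPM at 100 nM and 1001 and 919.6 CPM at 300 nM. Every decitabine library was therefore far above both DMSO libraries, while the difference between the doses did not pass the test (log2 fold change 0.18, SE 0.10, adjusted p = 0.131). At 100 nM its log2 fold change against DMSO was 5.64 (SE 0.12, adjusted p = 3.2e-15), and at 300 nM it was 5.82 (SE 0.12, adjusted p = 1.9e-15), a 56.6-fold difference. COL1A2, the partner chain of type I, had 0.583 and 0.489 CPM with DMSO, 8.70 and 10.3 CPM at 100 nM and 10.3 and 5.38 CPM at 300 nM. It rose 17.7-fold at 100 nM and 14.6-fold at 300 nM (log2 4.14 and 3.86, or 4.54 and 5.09 with the offsets), and 300 nM replicate 2 was lower than the other treated ones.

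COL5A1, a chain of type V collagen that is built into type I fibrils and limits their width, had 0.999 and 1.05 CPM with DMSO, 212 and 205 CPM at 100 nM and 309 and 285 CPM at 300 nM. This was the highest fold change of any collagen gene at either dose, 203-fold at 100 nM (log2 7.67, SE 0.14, adjusted p = 8.6e-16) and 289-fold at 300 nM (log2 8.18, SE 0.14, adjusted p = 3.8e-16). The 3 groups did not overlap, and 300 nM was higher than 100 nM by 0.51 on the log2 scale (SE 0.10, adjusted p = 4.9e-04). COL5A2, its partner chain, had 2.54 and 2.88 CPM with DMSO, 22.6 and 22.5 CPM at 100 nM and 29.5 and 32.2 CPM at 300 nM. It rose at both doses, by 3.06 and 3.51 on the log2 scale. COL3A1, the single chain of type III collagen, had 0.468 and 0.489 CPM with DMSO, 6.89 and 5.17 CPM at 100 nM and 6.93 and 2.44 CPM at 300 nM. It rose by 3.65 (SE 0.38) and 3.28 (SE 0.38), with the lowest treated value again in 300 nM replicate 2. COL3A1 and COL5A2 are neighbours on chromosome 2, with their ends facing each other 19.1 kb apart.

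The other fibrillar genes moved less or stood low. COL27A1, a fibrillar chain of developing cartilage, had 116 and 116 CPM with DMSO, 97.2 and 93.2 CPM at 100 nM and 67.4 and 78.5 CPM at 300 nM. It fell by 0.67 on the log2 scale at 300 nM (SE 0.11, adjusted p = 3.4e-05). At 100 nM its change was -0.29 (SE 0.11, adjusted p = 0.039), a call that was lost on leaving out any 1 of the 4 libraries compared (adjusted p 0.140 to 0.206). COL11A2, a type XI chain, ranged from 2.00 to 2.27 CPM with DMSO, 2.73 to 3.27 CPM at 100 nM and 2.21 to 2.23 CPM at 300 nM and was not called at either dose, although with the offsets it was called lower at 300 nM (log2 -0.61, adjusted p = 0.012). COL11A1 reached 0.423 CPM at most and was called higher at 300 nM (log2 2.74, SE 0.80, adjusted p = 0.006), a call lost without DMSO replicate 1 or 300 nM replicate 1 (adjusted p = 0.054 and 0.065). COL5A3 and COL24A1 stayed under 1 CPM and were not called against DMSO, and COL2A1, the main cartilage collagen, was too low to test.

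Most listed markers of fibroblasts, the usual source of fibrillar collagens, were called higher too. Of 8 listed markers 7 were tested, of which 6 were called higher at both doses. Of all tested genes 24.0% were called higher at 100 nM and 34.8% at 300 nM. The summed level of the 8 markers was 3.20 and 3.21 CPM with DMSO, 46.9 and 45.7 CPM at 100 nM and 102.9 and 89.98 CPM at 300 nM. Most of that sum came from PDGFRB, a growth factor receptor, and THY1, a surface glycoprotein, with means of 29.3 and 61.7 CPM at 300 nM and 1.13 and 1.12 CPM with DMSO. FAP and PDGFRA stayed at or under 0.182 and 0.178 CPM in the group means. Their part in the collagen changes was not tested. Some genes listed for endothelium and blood were called higher as well, at lower levels. Of 6 endothelial markers 4 were tested, of which 3 were called higher at 300 nM, and their sum was 1.00 and 1.43 CPM with DMSO, 2.18 and 1.84 CPM at 100 nM and 4.65 and 4.38 CPM at 300 nM. Of 5 blood markers 3 were tested and all 3 were called higher at 300 nM, with sums of 0.614 and 0.681 CPM with DMSO, 1.81 and 1.51 CPM at 100 nM and 4.04 and 2.47 CPM at 300 nM. Of 4 muscle markers 2 were tested. DES was called higher at 300 nM only. ACTC1 was called lower at both doses, with means of 4.60 CPM with DMSO, 0.0949 CPM at 100 nM and 0.143 CPM at 300 nM. Of 4 podocyte markers 2 were tested. WT1 was called higher at both doses (log2 0.56 at 300 nM, -0.15 with the offsets), and LAMB2 at neither.

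**Figure D2:**
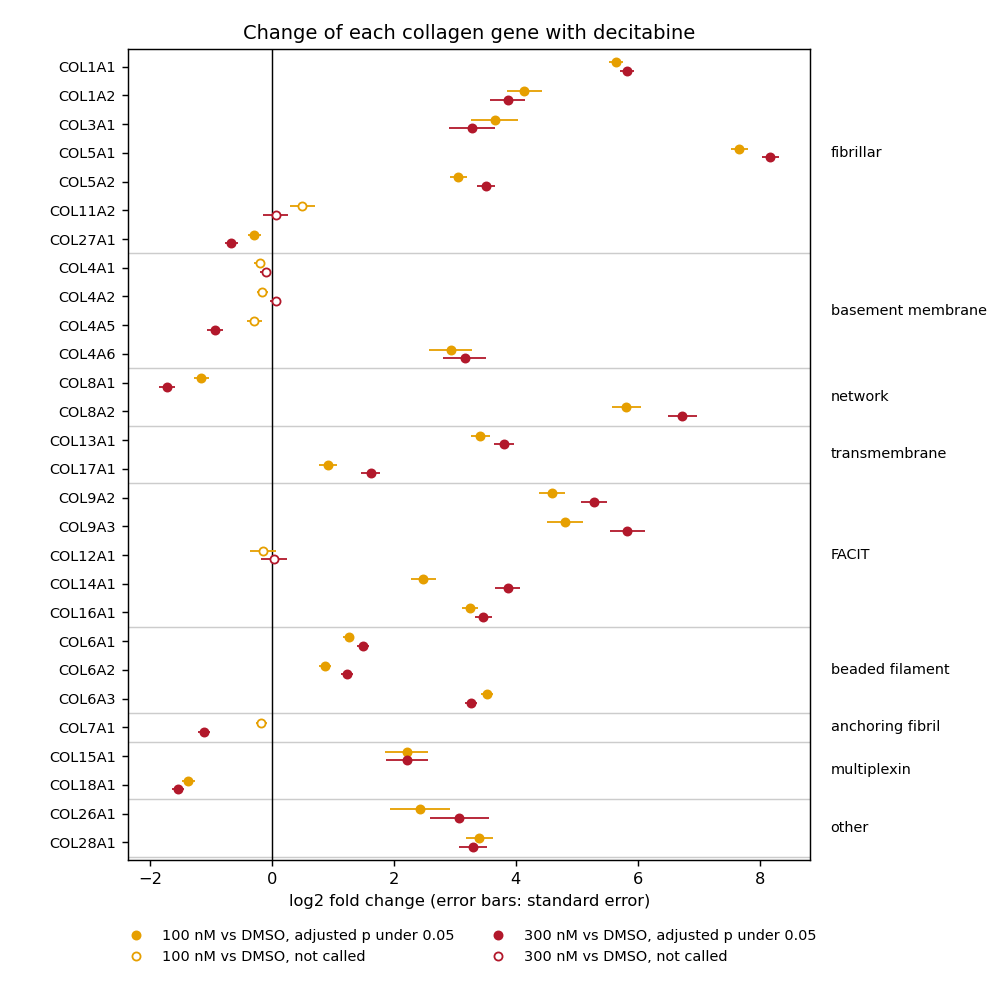
Log2 fold change against DMSO (x axis) of the 28 collagen genes at 100 nM and 300 nM, by class, with standard errors as bars and filled points for an adjusted p under 0.05. COL5A1, COL8A2 and COL1A1 lie farthest to the right, at 8.18, 6.73 and 5.82 for 300 nM, and COL8A1 and COL18A1 farthest to the left, at -1.72 and -1.54.

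Of the 6 basement membrane genes, all tested, 1 was called at 100 nM, higher, and 1 was called higher and 1 lower at 300 nM. Of all tested genes, 24.0% were called higher and 18.7% lower at 100 nM, and 34.8% higher and 31.1% lower at 300 nM. COL4A1 had 638 and 682 CPM with DMSO, 566 and 583 CPM at 100 nM and 607 and 624 CPM at 300 nM. COL4A2 had 841 and 837 CPM with DMSO, 739.9 and 764 CPM at 100 nM and 895 and 851 CPM at 300 nM. Both genes kept within a narrow band, with log2 fold changes of -0.20 and -0.16 (SE 0.09 each) at 100 nM and -0.10 and 0.06 (SE 0.09 each) at 300 nM, none called. With length and GC offsets both were called lower at both doses, by 0.43 to 0.52 on the log2 scale, beside the medians of -0.21 and -0.24 of all genes with those offsets. The gene models of this pair overlap at their starts on opposite strands, but COL4A1 shares 0 exon bases with any other gene.

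COL4A5, the alpha 5 chain altered in most families with Alport syndrome, had 28.2 and 27.8 CPM with DMSO, 22.8 and 23.1 CPM at 100 nM and 13.7 and 15.7 CPM at 300 nM. It fell by 0.93 on the log2 scale at 300 nM (SE 0.13, adjusted p = 5.9e-06), with no overlap between the 3 groups, and at 100 nM it was not called (log2 -0.29, adjusted p = 0.075). It was called lower at 100 nM with the offsets (-0.33), size factors by median of ratios (RLE), the replicate number as a block, only the 2 groups, DESeq2, and without either 300 nM library (adjusted p 0.005 to 0.043). The nearer RefSeq start of COL4A6 lies 379 bases away in the other direction. Another lies farther off, and gene counts do not tell which was used. COL4A6 had 0.125 and 0.245 CPM with DMSO, 1.31 and 1.51 CPM at 100 nM and 1.55 and 1.76 CPM at 300 nM. It rose by 2.93 (SE 0.35) and 3.16 (SE 0.35), so the members of this pair moved in opposite directions at 300 nM, though COL4A6 stayed below COL4A5 per kb of exon in every library. COL4A3 and COL4A4, which join COL4A5 in the glomerular basement membrane, stayed under 1 CPM and were not called.

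The network-forming class split within one collagen type. COL8A1 had 82.9 and 89.0 CPM with DMSO, 34.5 and 42.4 CPM at 100 nM and 24.8 and 27.3 CPM at 300 nM. It fell by 1.16 (SE 0.12, adjusted p = 8.1e-07) and 1.72 (SE 0.13, adjusted p = 2.6e-09) on the log2 scale. COL8A2, the other type VIII chain, had 0.146 and 0.128 CPM with DMSO, 8.38 and 7.15 CPM at 100 nM and 15.4 and 13.9 CPM at 300 nM. It rose 56.3-fold at 100 nM and 106-fold at 300 nM, with log2 fold changes of 5.81 and 6.73 (SE 0.23 each), or 5.90 at 300 nM with the offsets. The levels of the 2 genes ran in opposite orders by dose. COL10A1, the network collagen of growth plates, was not tested.

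Both transmembrane genes above 1 CPM rose at each dose. COL13A1, which is found at neuromuscular junctions and other adhesion sites, had 2.41 and 1.79 CPM with DMSO, 23.7 and 21.3 CPM at 100 nM and 29.3 and 29.4 CPM at 300 nM. COL17A1, a component of hemidesmosomes, had 3.84 and 3.65 CPM with DMSO, 6.94 and 7.23 CPM at 100 nM and 12.02 and 10.9 CPM at 300 nM. The log2 fold changes at 300 nM were 3.80 (SE 0.16, 3.13 with the offsets) for COL13A1 and 1.62 (SE 0.15, 1.05 with the offsets) for COL17A1. COL23A1 and COL25A1, the remaining members of the class, were too low to test.

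Of the 10 FACIT genes 7 were tested, of which 4 were called higher at 100 nM and 5 at 300 nM. Of all tested genes, 24.0% were called higher at 100 nM and 34.8% at 300 nM. COL9A2 had 0.520 and 0.957 CPM with DMSO, 16.9 and 18.6 CPM at 100 nM and 30.0 and 27.5 CPM at 300 nM. COL9A3 had 0.156 and 0.0851 CPM with DMSO, 3.81 and 3.03 CPM at 100 nM and 7.55 and 6.35 CPM at 300 nM. These are chains of type IX collagen, which coats type II fibrils in cartilage, and they rose by 5.28 and 5.83 on the log2 scale at 300 nM (4.36 and 4.95 with the offsets), while the third chain, COL9A1, was too low to test. Of 8 chondrocyte and bone markers 5 were tested, of which 3 were called higher and 1 lower at 300 nM (all tested genes 34.8% and 31.1%). RUNX2, the most abundant with DMSO, averaged 23.1 CPM at 300 nM and 91.5 CPM with DMSO (log2 -1.99, adjusted p = 1.3e-10). SOX9 averaged 31.8 CPM at 300 nM and 12.3 CPM with DMSO, MATN3 16.0 CPM at 300 nM and 5.65 CPM with DMSO, ACAN reached a mean of 0.125 CPM at most, and CNMD had no read. The part of such cells in the result was not tested.

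COL14A1, a FACIT chain of tendon and skin, had 0.614 and 0.798 CPM with DMSO, 3.78 and 4.10 CPM at 100 nM and 9.44 and 11.2 CPM at 300 nM. Its 3 groups were well apart, and the step between the doses, 1.39 on the log2 scale (SE 0.17, adjusted p = 8.4e-06), was the highest of the collagen genes described on their own. COL16A1, found in several connective tissues, had 4.05 and 3.68 CPM with DMSO, 37.9 and 35.6 CPM at 100 nM and 42.7 and 42.8 CPM at 300 nM. It rose 9.52-fold and 11.1-fold, or by 3.47 on the log2 scale at 300 nM (SE 0.14), and the difference between the doses did not pass the test (adjusted p = 0.154). COL12A1, a FACIT chain of tendon and ligament, had 2.23 and 2.28 CPM with DMSO, 2.11 and 1.95 CPM at 100 nM and 2.60 and 2.02 CPM at 300 nM. Its 300 nM and DMSO values overlapped and it was called at neither dose, although with the offsets it was called higher at 300 nM (log2 0.60). COL20A1, at 0.253 CPM at most, was called higher at 300 nM (log2 3.90, SE 1.24, adjusted p = 0.011), and this call was lost without DMSO replicate 1 or 300 nM replicate 2 (adjusted p = 0.103 and 0.125).

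The beaded filament genes COL6A1, COL6A2 and COL6A3 all rose. COL6A1 had 362 and 341 CPM with DMSO, 848 and 831 CPM at 100 nM and 1034 and 938 CPM at 300 nM. COL6A2 had 406 and 386 CPM with DMSO, 721 and 719 CPM at 100 nM and 993 and 859 CPM at 300 nM. COL6A3, the largest chain of the trimer, had 60.5 and 61.8 CPM with DMSO, 713 and 696 CPM at 100 nM and 567 and 609.6 CPM at 300 nM. The log2 fold changes put COL6A1 higher by 1.26 and 1.49, COL6A2 by 0.86 and 1.22 and COL6A3 by 3.53 and 3.27 (SE 0.10 for each). With the offsets the changes at 300 nM were 0.69 for COL6A1 and 0.40 for COL6A2. COL6A3 was thus 9.62-fold higher at 300 nM than with DMSO, beside 2.81-fold for COL6A1 and 2.34-fold for COL6A2. COL6A1 and COL6A2 lie 93.0 kb apart on chromosome 21, and COL6A5 and COL6A6 were too low to test.

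The anchoring fibril chain and 1 of the 2 multiplexins fell. COL7A1, the chain of the fibrils that hold epithelium to stroma, had 838 and 787 CPM with DMSO, 706 and 731 CPM at 100 nM and 363 and 386 CPM at 300 nM. It was not called at 100 nM (log2 -0.18, SE 0.09, adjusted p = 0.140, but -0.37 and called with the offsets) and fell by 1.12 at 300 nM (SE 0.09, adjusted p = 1.5e-08). COL18A1, whose cleaved end is the angiogenesis inhibitor endostatin, had 735 and 684 CPM with DMSO, 278 and 271 CPM at 100 nM and 260.4 and 229 CPM at 300 nM. It fell by 1.37 (SE 0.10, adjusted p = 7.1e-09) and 1.54 (SE 0.10, adjusted p = 6.2e-10), and the difference between the doses did not pass the test (log2 -0.17, adjusted p = 0.188), although it did with the offsets (-0.44, adjusted p = 3.3e-05). Part of its exons, 16.4% of bases, overlaps SLC19A1 on the opposite strand, and reads there could not be assigned by strand. COL15A1, the other multiplexin, had 0.270 and 0.213 CPM with DMSO, 0.999 and 1.24 CPM at 100 nM and 1.15 and 1.11 CPM at 300 nM. It moved the other way, rising by 2.21 and 2.22 (SE 0.35 each).

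COL26A1 and COL28A1, which fit none of these classes, rose at both doses. COL26A1 had 0.0832 and 0.160 CPM with DMSO, 0.856 and 0.454 CPM at 100 nM and 1.21 and 0.856 CPM at 300 nM, and COL28A1 had 0.479 and 0.383 CPM, 4.70 and 4.43 CPM, and 4.43 and 4.06 CPM in the same groups. Their log2 fold changes at 300 nM were 3.07 (SE 0.48, 2.02 with the offsets) and 3.30 (SE 0.23). The 9 genes not tested, COL2A1, COL6A5, COL6A6, COL9A1, COL10A1, COL19A1, COL22A1, COL23A1 and COL25A1, had at most 12 reads in any library. The 7 tested genes under 1 CPM in each group were COL4A3, COL4A4, COL5A3, COL11A1, COL20A1, COL21A1 and COL24A1, with at most 56 reads, and COL21A1 was called higher at 300 nM with the offsets (log2 2.06, adjusted p = 0.015, against 1.61 and 0.053 without them).

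The make-up of collagen RNA was compared per kilobase of exon, the scale on which levels of different genes can be set side by side. The summed level was 507 and 494 CPM per kb with DMSO, 722 and 719.6 CPM per kb at 100 nM and 818 and 761 CPM per kb at 300 nM. Basement membrane chains made up 34.9% and 36.8% of that sum in the DMSO group, 21.6% and 22.4% in the 100 nM group and 21.8% and 23.1% in the 300 nM group. Beaded filament chains made up 28.8% and 28.05%, 45.6% and 45.1%, and 49.7% and 48.1% in the same order. The lead thus passed to type VI in each of the 4 decitabine libraries. Fibrillar chains stood at 2.14% and 2.24% in the DMSO group, 16.5% and 15.9% in the 100 nM group and 17.2% and 17.1% in the 300 nM group. Multiplexins made up 17.0% and 16.2% in the DMSO group, 4.54% and 4.45% in the 100 nM group and 3.75% and 3.55% in the 300 nM group. The share of the anchoring fibril chain was 14.9% and 14.4% in the DMSO group, 8.83% and 9.18% in the 100 nM group and 4.01% and 4.58% in the 300 nM group. No group overlapped another in these shares for type VI and type VII, while the 2 doses overlapped for type IV.

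**Figure D3:**
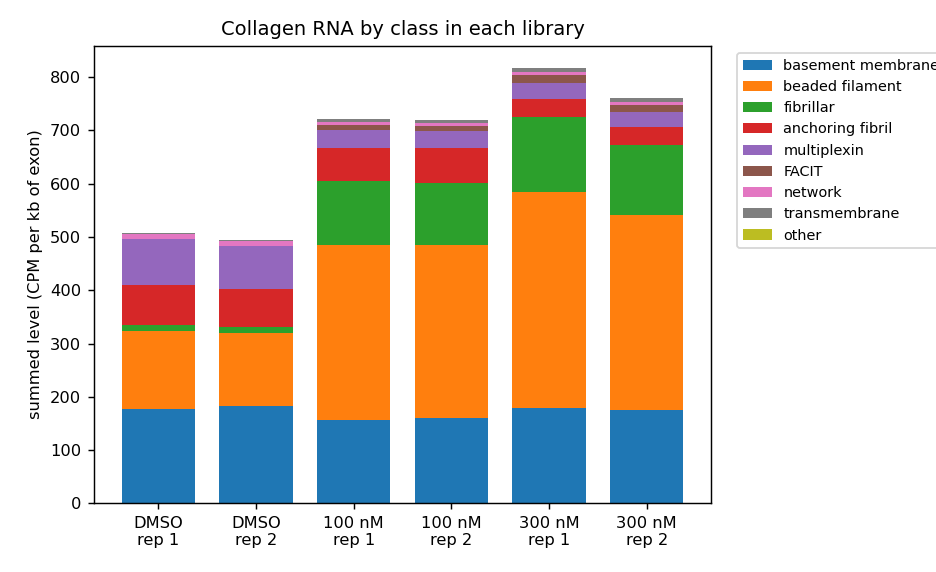
Summed level of collagen genes per kilobase of exon (y axis, CPM per kb) in each of the 6 libraries, stacked by class. Basement membrane chains are the largest block with DMSO (34.9% and 36.8%), and beaded filament chains with decitabine (45.1% to 49.7%).

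By single gene, COL4A2 led with DMSO at 96.3 ± 0.313 CPM per kb (SD, n = 2), followed by COL18A1 at 83.3 ± 4.24 and COL4A1 at 80.6 ± 3.78, whose ranges overlapped each other. COL6A2, COL7A1 and COL6A1 came next at 73.5 ± 2.58, 73.4 ± 3.26 and 65.7 ± 2.78 CPM per kb, and the first 2 of these overlapped. At 100 nM COL6A1 led at 157 ± 2.22 CPM per kb, followed by COL6A2 at 134 ± 0.234, an order that turned when the length of the longest transcript was used (ratio 0.951), with COL4A2 at 86.4 ± 1.99 and COL1A1 at 86.1 ± 2.24 not apart. At 300 nM COL6A1 and COL6A2, at 185 ± 12.6 and 172 ± 17.6 CPM per kb, overlapped, as did COL4A2 at 100.3 ± 3.56 and COL1A1 at 97.8 ± 5.89. COL18A1, second with DMSO, was eighth at both doses, at 32.2 ± 0.552 and 28.7 ± 2.61 CPM per kb. Its place with DMSO depended on the length used, since COL6A2 stood above COL18A1 there with that of the longest transcript.

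Within each library, the chains of one collagen type were set against each other as ratios per kb. The ratio of COL1A1 to COL1A2 was 31.8 and 41.0 in the DMSO group, 112 and 91.8 in the 100 nM group and 111 and 194 in the 300 nM group, where the textbook type I trimer holds a pair of alpha 1 chains for each alpha 2 chain. Alpha 1 RNA was in excess in each library, and the decitabine ratios lay above both DMSO ratios. With the offsets the rises of the chains came nearer to each other, at 5.41 for COL1A1 and 4.54 for COL1A2 at 100 nM and 5.40 and 5.09 at 300 nM on the log2 scale. The ratio of COL5A1 to COL5A2 averaged 0.243 ± 0.0127 with DMSO, 5.91 ± 0.102 at 100 nM and 6.18 ± 0.753 at 300 nM (SD, n = 2 each), so the more abundant chain of type V differed between DMSO and decitabine. COL6A1 to COL6A3 averaged 21.1 ± 1.19 with DMSO, 4.38 ± 0.0141 at 100 nM and 6.18 ± 0.739 at 300 nM. COL6A3 was thus nearer in level to COL6A1 with decitabine, while COL6A1 to COL6A2 stayed near equality, at 0.894 ± 0.00649, 1.17 ± 0.0146 and 1.08 ± 0.0371 in dose order. COL8A2 to COL8A1 averaged 0.00321 ± 0.000458 with DMSO, 0.414 ± 0.105 at 100 nM and 1.14 ± 0.160 at 300 nM. COL4A1 to COL4A2 moved least of these pairs, at 0.837 ± 0.0420, 0.812 ± 0.00210 and 0.750 ± 0.0411 in the same groups, and its DMSO and 100 nM values overlapped. The ratios are given as values, with no test.

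**Figure D4:**
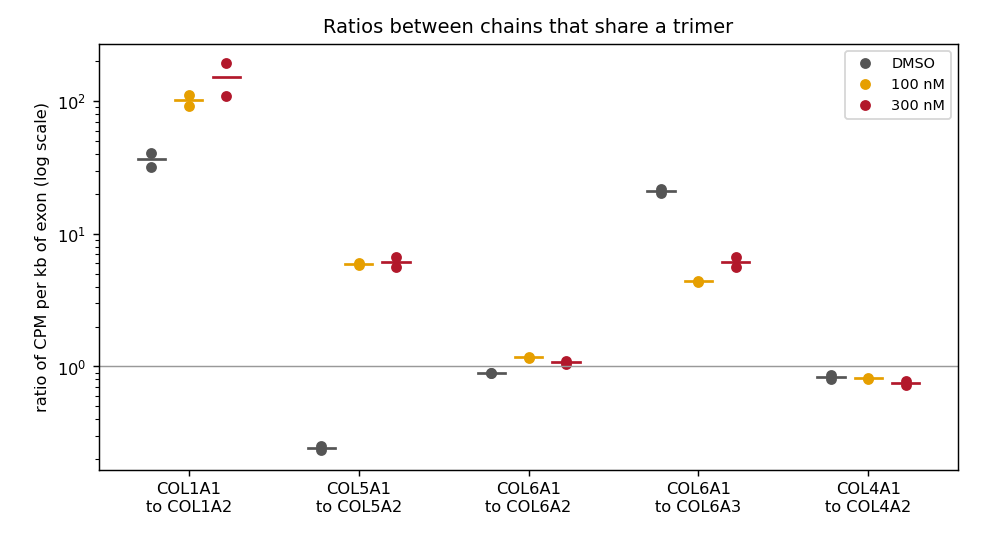
Ratio of the levels per kilobase of exon of chains that share a trimer (y axis, log scale), with a point per library and a line at each group mean. COL5A1 to COL5A2 lies at 0.234 and 0.252 with DMSO and at 5.64 to 6.71 with decitabine, while COL4A1 to COL4A2 lies between 0.721 and 0.866 in all libraries.

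Between the doses, 11 collagen genes were called higher and 5 lower at 300 nM than at 100 nM, beside 20.0% of all tested genes called higher and 23.4% lower. The steps up in genes above 1 CPM were those of COL14A1 (1.39), COL9A3 (1.02), COL8A2 (0.92), COL17A1 (0.70), COL9A2 (0.69, but 0.25 and not called with the offsets), COL5A1 (0.51), COL5A2 (0.45), COL13A1 (0.39, but 0.085 and not called with the offsets) and COL6A2 (0.36, but -0.031 with the offsets). COL7A1 fell by 0.94, COL4A5 by 0.64, COL8A1 by 0.56, COL27A1 by 0.38 and COL6A3 by 0.26 on the log2 scale. The step of COL6A3 was lost on leaving out any 1 of the DMSO or 100 nM libraries (adjusted p 0.082 to 0.127) and also with RLE, the offsets, only the 2 groups, DESeq2 and the deposited log2 matrix (0.073 to 0.166), and that of COL13A1 on leaving out any 1 of the 6 libraries (0.057 to 0.230). Those of COL5A2 and COL6A2 were lost without either 100 nM library (0.050 to 0.060). The remaining 2 genes called higher, COL11A1 and COL5A3, stayed under 1 CPM, and COL5A3 (log2 2.29) was not called without 300 nM replicate 1 (adjusted p = 0.549) or 100 nM replicate 2 (0.107), nor COL11A1 without replicate 1 of either dose (0.077 and 0.101). Calls were also gained: without 300 nM replicate 1, COL18A1, COL1A2 and COL3A1 were lower at 300 nM (adjusted p = 0.021, 0.004 and 7.7e-04), and without replicate 2, COL1A1, COL4A2 and COL6A1 were higher (0.019, 0.009 and 0.004).

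RefSeq promoter windows, 250 bases before to 50 after each start, were found for 32 of the 44 genes. A window was called CpG-rich at a GC content of at least 50% and a ratio of observed to expected CG dinucleotides of at least 0.6, and the window with the highest ratio was taken for each gene. CG reads the same on both strands. Of the 32 collagen genes 19 (59.4%) had a CpG-rich window, beside 46.9% of all 35116 windows, which were counted one by one. By call at 300 nM, CpG-rich windows were found in 7 of 13 genes called higher, 2 of 4 called lower, 7 of 9 not called and 3 of 6 not tested. Both kinds of window thus occurred among the genes that rose: COL5A1 and COL8A2 had ratios of 0.894 and 0.922, while COL6A3, COL28A1 and COL17A1 had ratios of 0.184, 0.0947 and 0.0820. COL4A1, COL4A2 and COL12A1, not called against DMSO, had ratios of 1.02, 1.00 and 1.009, and COL18A1, which fell, 0.897. Methylation was not measured here, and a ratio in these windows says nothing of it.

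**Figure D5:**
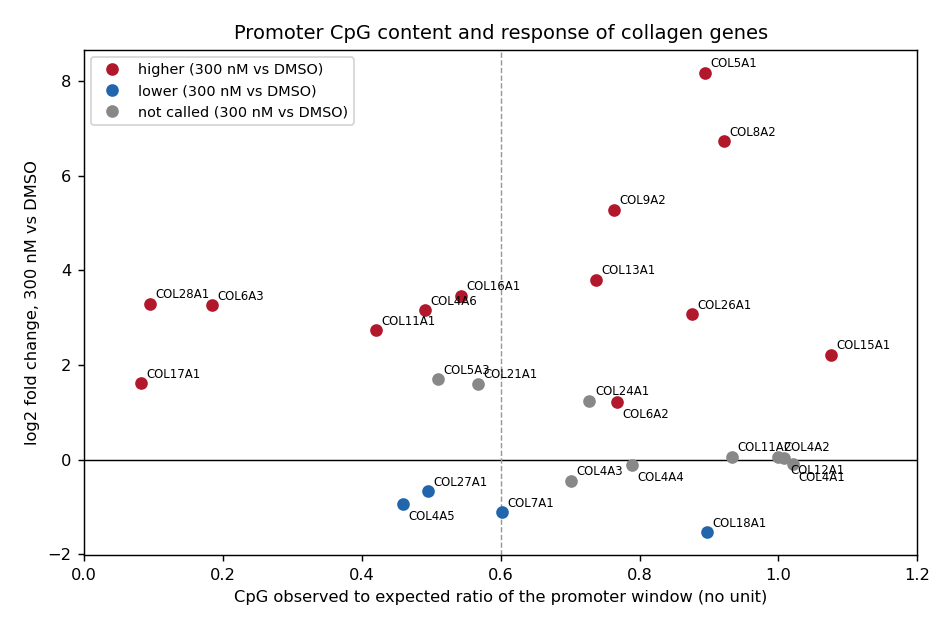
Ratio of observed to expected CG dinucleotides in the promoter window (x axis) and log2 fold change at 300 nM against DMSO (y axis) of 26 tested collagen genes, coloured by call, with a dashed line at a ratio of 0.6. Genes called higher lie on both sides of the line, from COL17A1 at 0.0820 to COL15A1 at 1.08.

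Genes that fold, modify and export procollagen did not share one direction. Of 19 folding and modification genes, 9 were called higher and 3 lower at 100 nM, and 8 higher and 4 lower at 300 nM (median log2 fold change 0.17, all genes 0.05). Of all tested genes, 24.0% were called higher and 18.7% lower at 100 nM and 34.8% higher and 31.1% lower at 300 nM. The counts of each list are to be read against these shares. With the offsets, PPIB, PLOD1, COLGALT1, P3H2 and FKBP10, called higher at 100 nM, turned negative (-0.0082 to -0.16). All of these lay above the median of -0.21 of all tested genes with the offsets at that dose. P4HA2, P4HA3, P3H4 and COLGALT2, the others called higher there, stayed positive. Among those called higher at 300 nM, PPIB, PLOD1, COLGALT1 and P3H4 turned negative (-0.038 to -0.35). The median of all tested genes with the offsets was -0.24 there, and only PPIB of these lay below it. P4HA2, P4HA3, COLGALT2 and SERPINH1 stayed positive there. SERPINH1, the collagen chaperone HSP47, had 331 and 338 CPM with DMSO, 395 and 381 CPM at 100 nM and 643 and 545 CPM at 300 nM, and rose by 0.83 at 300 nM (SE 0.10, adjusted p = 1.6e-06), 0.10 and not called with the offsets. P4HB, the beta subunit of prolyl 4-hydroxylase, was not called at either dose (log2 0.03 at 100 nM and 0.16, SE 0.09, at 300 nM), but with the offsets it was called lower at both (-0.37 and -0.57, adjusted p = 2.8e-05 and 2.0e-07). P4HA3, an alpha subunit, rose by 3.08 (2.40 with the offsets) and stayed at or under 2.26 CPM. FKBP14, an isomerase of the endoplasmic reticulum, fell by 2.01 at 300 nM (-0.84 with the offsets). PLOD2, a lysyl hydroxylase for cross-links, and TMEM38B, an ion channel of the same compartment, fell by 1.51 and 1.14, but changed sign to 0.44 and 0.53 with the offsets. Of 8 export genes 1 was called at 100 nM, lower, and 6 lower and 1 higher at 300 nM (median -0.61). MIA3, the TANGO1 receptor that loads procollagen into carriers, had 97.8 and 105 CPM with DMSO, 49.97 and 58.6 CPM at 100 nM and 25.7 and 27.7 CPM at 300 nM, and fell by 1.92 at 300 nM (-0.70 with the offsets). SEC23A, MIA2 and SEC24D, coat proteins and a partner of that step, fell by 0.75, 1.09 and 0.52, each with the opposite sign with the offsets (0.92, 0.51 and 0.01).

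Of 9 procollagen cleavage genes, 3 were called higher and 2 lower at 100 nM, and 6 higher and 2 lower at 300 nM (median 0.67), where the counts at 100 nM are near the 24.0% and 18.7% of all tested genes. ADAMTS2 and ADAMTS3, proteases that trim the amino end of procollagens, moved in opposite directions, at 1.85 (SE 0.18) and -2.63 (SE 0.17, -1.90 with the offsets) at 300 nM. PCOLCE2, an enhancer of cleavage at the other end, rose by 0.69 (0.16 with the offsets), and FURIN, which activates such proteases, by 0.77 (-0.06 with the offsets). Values with the offsets at 300 nM stand beside a median of -0.24 of all tested genes. Of 11 collagen receptors, 10 were tested, of which 5 were called higher and 2 lower at 100 nM, and 5 higher and 3 lower at 300 nM (median 0.25). ITGB1, the beta subunit shared by collagen-binding integrins, had 1407 and 1560.0 CPM with DMSO, 789 and 890.5 CPM at 100 nM and 348 and 433 CPM at 300 nM, and fell by 0.82 and 1.93 (-0.86 at 300 nM with the offsets). ITGA1, an alpha subunit, fell by 1.95 at 300 nM (-0.0014 with the offsets), DDR1, a receptor kinase, rose by 1.63, and OSCAR, a receptor of osteoclasts, rose by 6.49 (5.30 with the offsets) to 5.56 and 5.98 CPM at 300 nM, against 0.104 and 0.0213 CPM with DMSO.

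Of 12 fibril-associated proteoglycan and glycoprotein genes, 9 were tested, of which 5 were called higher and 1 lower at 100 nM and 7 higher and 1 lower at 300 nM (median 2.16). The 1 that fell was FN1, fibronectin, at 6937 and 7011 CPM with DMSO, 3782 and 4288 CPM at 100 nM and 1726 and 1861 CPM at 300 nM (log2 -1.96, SE 0.10, at 300 nM, or -0.55 with the offsets). TNXB, BGN and DCN, matrix proteins that bind collagen fibrils, rose by 3.67, 2.16 and 2.73 (3.51, 1.04 and 4.53 with the offsets) and stayed at or under 6.69 CPM. DCN and LUM stand on the fibroblast list too. Among 15 basement membrane partners, 8 were called higher and 5 lower at each dose (median 0.99 at 300 nM). The 5 called lower were LAMA3, LAMB1, LAMC1, HSPG2 and AGRN. AGRN averaged 1846 CPM with DMSO and 1251 CPM at 300 nM, and HSPG2 720 and 308 CPM. The summed level of the list fell, at 4265 and 4139 CPM with DMSO, 3318 and 3520 CPM at 100 nM and 3087 and 3051 CPM at 300 nM. Among laminin chains of epithelial basement membranes, LAMA3 fell by 2.65 at 300 nM (SE 0.11), while LAMB3 rose by 2.25 (SE 0.11) and LAMA5 rose by 2.04. LAMA3 and LAMB3 stand in opposite directions with the offsets too, at -2.53 for LAMA3 and 1.46 for LAMB3. Of 16 genes of TGF-beta signalling and collagen transcription, 5 were called higher and 3 lower at 100 nM and 6 higher and 8 lower at 300 nM (median -0.29). Those at 100 nM, and the 6 higher at 300 nM, lie near the shares of all tested genes (24.0%, 18.7% and 34.8%). Among the 8 lower at 300 nM, SMAD2, SMAD4 and TGFB2 were called higher with the offsets (1.04, 0.80 and 0.36). TGFBR1, TGFBR2, SP1, RUNX2 and SKIL stayed negative. Of these, SP1 (-0.15) and SKIL lay above the median of -0.24 of all tested genes with the offsets. Among the 6 higher, TGFB1 and SMAD7 turned negative with the offsets (-0.78 and -0.16), while SMAD3, CTGF, CREB3L1 and SOX9 stayed positive. SMAD7 too lay above that median. CTGF, a matricellular protein, and CREB3L1, a transcription factor of collagen genes, rose by 2.77 and 2.02 (1.92 and 1.11 with the offsets), and RUNX2 and SKIL, a bone transcription factor and an inhibitor of SMAD proteins, fell by 1.99 and 2.03 (-1.67 and -0.07 with the offsets).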

How the data were processed

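The authors aligned reads with STAR and counted them per gene with featureCounts 1.5.0-p3 on GENCODE release 28 models, per the submitters' processing notes and the file headers. The deposited counts are whole reads and not normalised, and the recorded commands hold no strand or read-pair option, so mates were counted singly. The notes name the builds hg19 and GRCh37, but coordinates were GRCh38 in the files (all 56888 genes that have the same versioned identifier in GENCODE release 29), and names came from release 29. The deposited log2 matrix, variance-stabilised by the authors as far as its values show, served as an alternative only. Counts were filtered with filterByExpr (23160 genes) and scaled by TMM, and all 6 libraries entered a single edgeR quasi-likelihood model by dose group with 3 residual degrees of freedom and Benjamini-Hochberg adjustment (edgeR 4.0.16, limma 3.58.1, DESeq2 1.42.0, R 4.3.3). Tests were two-sided and called at 0.05. Scripts were tested on simulated data. Genes with a group mean of at least 1 CPM were described on their own. From each other gene list, up to 4 called genes with the smallest adjusted p at 300 nM were named, besides SERPINH1, P4HB, PLOD2, ITGB1 and SETD2. Further genes were named where the offsets or the levels changed the reading of a list. Some genes on the lists are counted in them but not reported here by name. Members and lists were chosen with earlier results of these data known.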

Additional observations from a re-analysis of the deposited data

How the results depend on the processing

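Directions against DMSO of the collagen genes called there held under every alternative run, which were size factors by median of ratios (RLE), no low-count filter, each library left out, the replicate block, length and GC offsets, a fit of only the 2 groups, DESeq2, and limma on the deposited log2 matrix. Counts called lower moved the most. At 100 nM, 3 collagen genes were called lower, against 7 with the offsets, 5 with only the 2 groups compared and 5 with DESeq2, and all genes called lower numbered 4331, against 8022 with the offsets. At 300 nM, 5 collagen genes were called lower, against 8 with the offsets, and for 300 nM against 100 nM 5 were called lower, against 3 with the deposited log2 matrix.

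Leaving out each library in turn gave 19 to 20 collagen genes higher and 2 to 7 lower at 100 nM, 19 to 23 higher and 5 to 5 lower at 300 nM, and 7 to 13 higher and 4 to 8 lower between the doses. For all genes the ranges were 4357 to 6056 higher and 2883 to 5036 lower at 100 nM, 6886 to 8280 and 6179 to 7265 at 300 nM, and 2896 to 4901 and 4087 to 5917 between the doses. Without either 300 nM library, COL4A1, COL4A2, COL4A5 and COL7A1 were called lower and COL11A2 higher at 100 nM (adjusted p 0.018 to 0.047). COL4A1 was also called lower at 100 nM with DESeq2 and with only the 2 groups (0.038 each), COL11A2 was called higher there with the block and with only the 2 groups (0.041 and 0.039), and COL27A1 was not called there without the filter or with the deposited matrix (0.058 and 0.050). Between the doses, COL4A2 and COL6A1 were called higher with RLE, the block and DESeq2 (0.008 to 0.036), COL1A1 and COL16A1 higher with DESeq2 (0.037 and 0.044), COL3A1 lower with the block (0.024), and COL11A2 lower and COL12A1 higher with the offsets (0.007 and 0.047). The calls of COL13A1 and COL27A1 were lost with the deposited matrix (0.062 and 0.054), and that of COL5A3 with the matrix and the offsets (0.107 and 0.057). Where a group is left with 1 library, that library is assumed to vary like the others.

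The genes whose fold change turned its sign were not called in the reported fit, apart from COL6A2. Against DMSO these were COL12A1 at 100 nM (0.027 with the offsets) and at 300 nM (-0.15 without 300 nM replicate 1, the lowest of -0.15 to 0.21 as each library was left out), COL11A2 at 300 nM (-0.61 with the offsets, adjusted p = 0.012, and -0.035 to 0.15 as each library was left out, lowest without DMSO replicate 1) and COL4A2 at 300 nM (-0.45 with the offsets, adjusted p = 9.5e-06). Between the doses the offsets gave COL15A1 -0.21, COL16A1 -0.0011, COL1A1 -0.0098, COL1A2 0.55, COL28A1 0.014, COL4A1 -0.065, COL4A2 -0.016, COL6A1 -0.14 and COL6A2 -0.031. COL15A1 was -0.0038 with only the 2 groups. As each library was left out, steps between the doses ranged over -0.16 to 0.17 for COL15A1, -0.0096 to 0.35 for COL12A1, -0.82 to 0.12 for COL1A2 and -1.31 to 0.20 for COL3A1, the last 2 positive only without 300 nM replicate 2. The cause was not tested.

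With exon length replaced by that of the longest transcript, COL1A1 to COL1A2 was 28.5 with DMSO and 80.1 at 100 nM, COL5A1 to COL5A2 0.317, 7.73 and 8.07, COL4A1 to COL4A2 0.772, 0.750 and 0.692, and COL6A1 to COL6A2 0.724, 0.951 and 0.871 in dose order. Single libraries gave 31.8 to 41.0, 91.8 to 112 and 111 to 194 for COL1A1 to COL1A2, 0.234 to 0.252, 5.84 to 5.98 and 5.64 to 6.71 for COL5A1 to COL5A2, 0.807 to 0.866, 0.811 to 0.813 and 0.721 to 0.779 for COL4A1 to COL4A2, and 0.889 to 0.898, 1.16 to 1.18 and 1.05 to 1.10 for COL6A1 to COL6A2.

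Deviations of libraries that share a replicate number correlated at 0.0201, 0.0075 and 0.0748 across genes. With 2 libraries per group and counting error in low genes, these values cannot tell whether the numbers pair the samples. With the replicate block, 21 collagen genes were called higher and 4 lower at 100 nM, 21 and 5 at 300 nM, and 13 and 6 between the doses. No gene call was lost. Against DMSO, 2 of the 7 tested genes under 1 CPM were called at 300 nM, and all 7 had at most 56 reads in a library, so their values rest on few reads.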

Other observations

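Genes named after collagens but outside the protein-coding set were nearly silent. COL18A1-AS1, transcribed against COL18A1, had 30 and 35 reads in the DMSO group, 10 and 22 in the 100 nM group and 46 and 13 in the 300 nM group, and COL4A2-AS1 had 17 and 25, 14 and 1, and 4 and 16 in the same groups. Neither was called at either dose against DMSO, and without strand in the counting these reads cannot be told apart from those of the sense genes. COL5A1-AS1, inside the gene with the highest fold change, had 7 and 5 reads in the DMSO group, 0 and 6 in the 100 nM group and 5 and 15 in the 300 nM group. The pseudogenes COL11A2P1 and COL6A4P2 had no read in any library.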
